A study of Mus musculus with 12 samples.

Results

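The endothelial cells of dissociated mouse islets were 246 cells of the 3184 sequenced in the YFP- fraction, out of 5982 single cells in 4 libraries. A cell was taken as endothelial when it held at least 1 UMI, a molecule counted once by its barcode, of 3 or more of 8 vessel genes (Pecam1, Plvap, Cdh5, Kdr, Egfl7, Esam, Flt1 and Emcn), none of the leukocyte gene Ptprc, and levels of the hormone genes Ppy, Gcg, Ins2 and Sst below the limits that set endocrine cells apart. Experiment 1 gave 73 such cells of 1495 (4.88%, exact binomial 95% interval 3.85 to 6.10%) and experiment 2 gave 173 of 1689 (10.2%, 8.84 to 11.8%). These intervals cover counting error only, and how many of the cells came through dissociation and sorting was not measured.

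Both experiments used Ppy-YFPi mice, which carry rtTA in 1 allele of the Ppy gene, TetO-Cre, and a Rosa26 YFP reporter behind a stop cassette, on a mixed background. All animals received doxycycline (DOX) in the drinking water at 1 mg/ml, given 1 month before the cells were taken, and were 2 months old, so that YFP marked cells in which Ppy had been expressed, and vessel cells were sought in the YFP- fraction. The labels do not give the length of the course, and the general methods of the study describe one shorter than that interval. The age label of the single-cell samples calls the mice wild type, whereas their protocol describes the transgenic line. Islets of pooled mice were dissociated and sorted by FACS into YFP+ and YFP- fractions, in 2 independent experiments. Each fraction of each experiment gave a 10x Chromium library of its own. There was no untreated or control arm, so that endothelial cells were compared with other cells of the same libraries and not between conditions.

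Islets are crossed by a dense net of capillaries whose thin endothelium is perforated by fenestrae, pores that are closed by a diaphragm of the protein Plvap. Endocrine cells make VEGF-A, which acts on the receptors Kdr and Flt1 of these capillaries, and the endothelium in turn lays down much of the basement membrane on which endocrine cells rest. Capillaries, small arteries and veins carry partly different genes, and mural cells (pericytes and smooth muscle) wrap around them.

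The endothelial cells held few molecules. They had a median of 2201 UMIs and 1104 genes per cell in experiment 1 and 1691 UMIs and 918 genes in experiment 2, where the medians of all YFP- cells were 8338 and 4237 UMIs. Together they gave 224222 UMIs in experiment 1 and 370691 in experiment 2, which was 1.22% and 3.47% of the UMIs of their libraries. Mitochondrial transcripts took 3.20% and 3.02% of them. Between 1 and 6 cell barcodes were shared by any pair of the 4 libraries, and 0 of these belonged to endothelial cells. Values below are CPM (the UMIs of a gene over all UMIs, scaled as usual for counts) of the summed endothelial cells of each experiment, so that there were 2 values for each class.

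The 8 genes that chose the cells are given as a description. The median cell held 7 of the 8 in experiment 1 and 6 in experiment 2, and all 8 were present in 23 and 28 cells. Their levels lay between 392 CPM (Esam) and 1400 CPM (Egfl7) in experiment 1 and between 437 CPM (Esam) and 1481 CPM (Flt1) in experiment 2. Plvap, the diaphragm protein, stood at 1164 and 1241 CPM, and Kdr, the main VEGF receptor, at 1106 and 780 CPM. Just inside the limit, 1 and 5 cells held 3 of the 8 genes, with median totals of 1146 and 1032 UMIs. Just outside it, 5 and 11 cells held 2, with median totals of 3150 and 1684 UMIs, and Fabp4 was found in 4 and 5 of them. A further 2 and 5 cells with enough vessel genes were left out because of a high hormone level.

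The chosen cells were also described by Fabp4 and Rbp7, carriers of fatty acids and retinoids that the rule did not use. Fabp4 was found in 70 of 73 endothelial cells in experiment 1 (95.9%, exact interval 88.5 to 99.1%) and 165 of 173 in experiment 2 (95.4%, 91.1 to 98.0%). Of the β-class cells, which should lack it and had median totals of 23732 and 12529 UMIs, 2.77% and 10.0% held a Fabp4 UMI. With every cell thinned to 1000 UMIs the endothelial shares were 90.4% and 90.8% and the β-class shares 0.462% and 1.11%. Rbp7 was found in 76.7% and 82.1% of endothelial cells, against 1.15% and 6.67% of β-class cells. Both genes were thus found in most of the chosen cells in both experiments, and the label was kept. They had been taken as markers with earlier results of these data known, so that this is no independent check of the label. The stromal class, not compared here, also held Fabp4.

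Ins2 and Gcg transcripts were present in the endothelial cells near the levels of the stromal and macrophage classes. Ins2 stood at 10289 and 3874 CPM in endothelial cells, at 9615 and 3489 CPM in the stromal class and at 10972 and 3722 CPM in the macrophage class. Gcg stood at 1521 and 4208 CPM in endothelial cells and at 1437 and 3754 CPM in the stromal class. Ppy stood at 134 and 240 CPM in endothelial cells, 96.4 and 175 CPM in the stromal class and 63.0 and 201 CPM in the macrophage class. Hormone levels were capped by the rule, so these are descriptions. Iapp, the amyloid peptide of β-cells, which the rule did not use, followed them with 718 and 475 CPM in endothelial cells, 693 and 401 CPM in the stromal class and 824 and 456 CPM in the macrophage class. Stromal, macrophage and glial markers were rare in the same cells. The 8 stromal markers summed to 98.1 and 105 CPM, against 29379 and 26121 CPM in the stromal class, and the most abundant of them was Gsn at 53.5 and 45.9 CPM, while Col1a1 and Lum were at 0. The 8 macrophage markers summed to 8.92 and 62.0 CPM, with Lyz2 the most abundant at 8.92 and 27.0 CPM and Cd68 and C1qc at 0. Glial markers were at 0, and no endothelial cell held 3 or more stromal or macrophage markers. The 8 lymphocyte markers summed to 549 and 602 CPM, nearly all of it from Igkc, an antibody light chain, at 513 and 518 CPM in 71.2% and 65.9% of cells. The stromal class held Igkc at 459 and 390 CPM in 81.7% and 64.0% of cells, while the T cell genes Cd3e and Cd3d were at 0 in endothelial cells. Mural, ductal and erythroid genes were carried by a few cells, which are described with the genes found in few cells.

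To find out which genes set endothelial cells apart, their sums were compared with those of the stromal class (60 and 136 cells), the macrophage class (51 and 170 cells) and the mean of the 3 endocrine classes (α, β and δ) with edgeR's quasi-likelihood test and the experiment as a term. A gene was called at a Benjamini-Hochberg adjusted p of at most 0.05 and a log2 fold change beyond 0.721. Of 8462 genes tested outside the rule, 728 (8.6%) were higher and 882 (10.4%) lower than in the stromal class, 1248 (14.7%) higher and 1138 (13.4%) lower than in the macrophage class, and 1904 (22.5%) higher and 1547 (18.3%) lower than in the endocrine classes. In all 3 comparisons 435 genes (5.14%) were higher and 84 lower. Of the 435, 201 (46.2%) passed the filter on low counts only through the endothelial sums, as did 521 of all genes tested, so that the filter fixed their direction and counts of higher genes are descriptions. The classes were drawn from the same counts that were then compared, so that genes which travel with the marker genes differ in part by selection, and the adjusted p-values measure only the spread between 2 experiments of pooled mice. Across 8475 genes the 2 endothelial sums had a Spearman correlation of 0.870 with each other, against 0.573, 0.459 and 0.406 between the endothelial sum of experiment 1 and the stromal, macrophage and β-class sums of the same library. These describe levels across genes, which are not independent replicates.

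**Figure D1:**
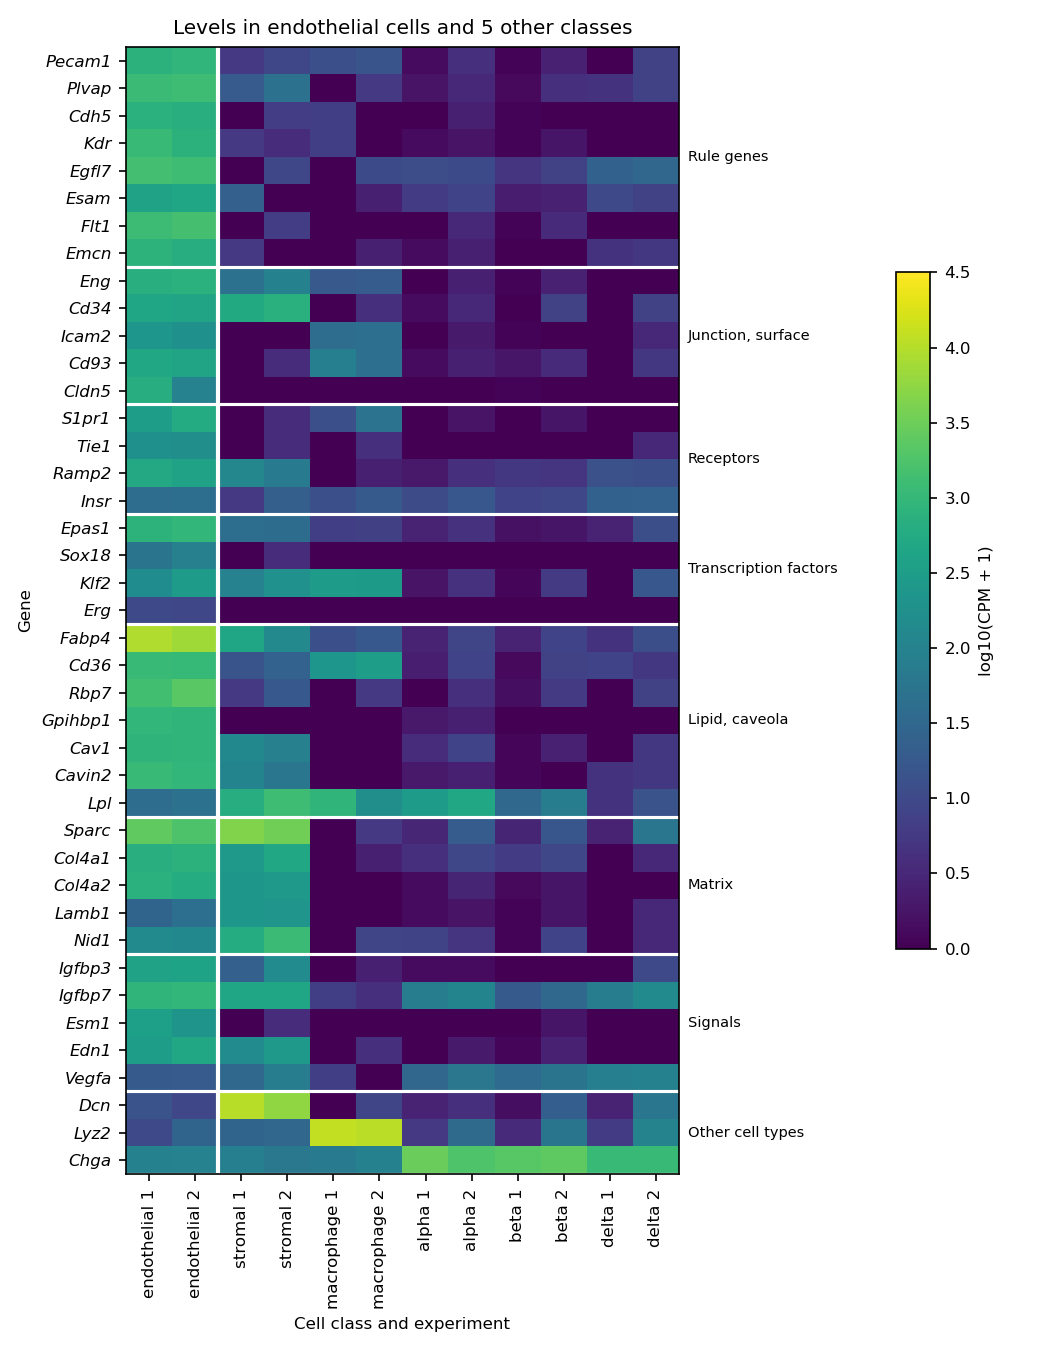
Levels of selected genes (rows, grouped by role) in the sums of 6 cell classes in experiments 1 and 2 (columns), as log10(CPM + 1) on a colour scale. The 2 endothelial columns on the left are bright for the vessel genes, and Cd34, Klf2, Sparc and Edn1 are also bright in the stromal columns. Lamb1 and Nid1 are brighter in the stromal columns, Lpl in the stromal and macrophage columns, and Vegfa in the stromal and endocrine columns.

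Fatty acid and retinoid carriers were among the most abundant genes that separated endothelial cells from their neighbours. Fabp4, which carries fatty acids through the cytoplasm, stood at 9343 and 7195 CPM and reached 468 and 128 CPM in the stromal class and at most 16.6 CPM in the macrophage class. Its log2 fold change was 4.60 (SE 0.53) over the stromal class, 8.66 over the macrophage class and 9.76 over the endocrine classes, with a largest adjusted p of 4.7e-06 by edgeR's quasi-likelihood test. Rbp7 stood at 1378 and 2271 CPM and at no more than 16.4 CPM in any other sum (log2 fold change 7.29, SE 0.53, over the stromal class). It passed the filter on low counts only through the endothelial sums, which fixed its direction, so these values are a description. Cd36, a fatty acid translocase, stood at 1075 and 1020 CPM, at 13.8 and 24.6 CPM in the stromal class and at 229 and 320 CPM in the macrophage class, where its log2 fold change of 1.60 was no longer called without experiment 1 of the endothelial cells. Fabp5, another fatty acid carrier, was at 656 and 653 CPM and higher in all 3 comparisons.

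Gpihbp1, which anchors lipoprotein lipase to the capillary wall, stood at 950 and 877 CPM. It had 0 UMIs in the stromal and macrophage classes, which makes it at least 178-fold and 255-fold higher there at a floor of 3 counts per class, and at most 1.5 CPM in the α-class and 0 in the β-class. Lpl, the lipase itself, went the other way. Endothelial cells held 40.1 and 45.9 CPM of it, against 647 and 1275 CPM in the stromal class (log2 fold change -4.70, SE 0.67, adjusted p = 4.9e-05) and 870 and 163 CPM in the macrophage class (-3.96, SE 0.68, adjusted p = 0.00024, both by edgeR). The difference from the endocrine classes (-1.33) was not called, with an adjusted p of 0.12. In all, 5 of the 9 tested genes of lipid and retinoid handling were higher in all 3 comparisons, against 5.14% of all genes tested. Of these, 2 (Gpihbp1 and Rbp7) had passed the filter only through the endothelial sums. The list medians of the log2 fold change were 3.43, 3.63 and 7.34 over the stromal, macrophage and endocrine classes. The medians over all genes were -0.0016, 0.03 and -0.0085.

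Rbp7 belongs to the 15 genes, 1 of them a predicted gene that is not named, that the naming rule took from those higher in all 3 comparisons, and the start regions of 3 of them are shown since their genes are described here for different reasons: Rbp7 was found in most of the cells, Sema3g is known from arteries, and Esm1 is known from sprouting tip cells. Each is the RefSeq stretch from 250 bases before to 50 after the gene's start on GRCm38.p6, 5′ to 3′ on the gene's strand, and capitals mark CNGGAAG, the core of many ETS factor sites, or CTTCCNG, the same letters on the other strand.
Rbp7, chr4:149454919-149455218, minus strand: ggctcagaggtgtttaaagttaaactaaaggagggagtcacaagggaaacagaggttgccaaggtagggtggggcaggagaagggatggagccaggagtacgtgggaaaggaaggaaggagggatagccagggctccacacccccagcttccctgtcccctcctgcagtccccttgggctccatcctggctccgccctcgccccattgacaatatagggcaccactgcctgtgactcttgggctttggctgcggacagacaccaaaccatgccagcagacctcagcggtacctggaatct
Sema3g, chr14:31217623-31217922, plus strand: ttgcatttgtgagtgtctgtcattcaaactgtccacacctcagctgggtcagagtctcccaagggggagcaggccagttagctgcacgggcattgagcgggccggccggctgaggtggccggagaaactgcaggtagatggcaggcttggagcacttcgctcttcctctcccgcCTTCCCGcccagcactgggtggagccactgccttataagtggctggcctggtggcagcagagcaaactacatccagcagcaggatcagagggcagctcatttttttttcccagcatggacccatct
Esm1, chr13:113209409-113209708, plus strand: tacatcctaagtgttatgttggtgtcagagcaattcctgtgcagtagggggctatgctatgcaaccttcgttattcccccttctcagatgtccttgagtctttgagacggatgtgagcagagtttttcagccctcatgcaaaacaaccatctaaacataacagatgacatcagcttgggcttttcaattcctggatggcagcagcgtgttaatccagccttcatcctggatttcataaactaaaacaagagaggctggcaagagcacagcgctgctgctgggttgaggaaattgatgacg
Sema3g holds the letters once, and Rbp7 and Esm1 do not hold them in these windows. The set of RefSeq start regions used here covered 12 of the 15 genes, and 6 of these genes held a match. Of all 32851 start regions 31.9% held a match, of the 8527 of genes tested 39.7%, and of the 464 regions of 322 genes among the 435 higher in all 3 comparisons 33.0%. A match describes letters and is not a site, and its share among the endothelial genes was not above the share among all genes tested.

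Most of the other genes named by this rule were close to absent from the other classes. Sema3g, a secreted semaphorin, stood at 161 and 216 CPM and had 0 UMIs in the stromal and macrophage classes, at least 36.6-fold and 52.5-fold higher. Gja5, a gap junction protein of arteries, stood at 125 and 119 CPM and had 0 UMIs in all 5 other classes, which is at least 23.7-fold over the stromal, 34.0-fold over the macrophage and 97.6-fold over the mean of the endocrine classes, each at a floor of 3 counts. Mecom, a transcription factor, stood at 303 and 386 CPM, at least 67.1-fold and 96.1-fold over the stromal and macrophage classes, and at most 4.87 CPM in any endocrine class. Car4, a carbonic anhydrase anchored in the capillary membrane, stood at 223 and 162 CPM, and Esm1, a secreted proteoglycan of tip cells, at 339 and 210 CPM. Clec1a, a C-type lectin, stood at 250 and 156 CPM and the C1q-related C1qtnf9 at 129 and 113 CPM. Cyyr1 (312 and 440 CPM), the protocadherin Pcdh17 (406 and 329 CPM), Myct1 (330 and 299 CPM) and the vessel matrix gene Mmrn2 (611 and 491 CPM) were higher by log2 fold changes of at least 6.98 in every comparison. Sema3g, Gja5, Car4 and Esm1 passed the filter on low counts only through the endothelial sums, which fixed their direction. All genes of this paragraph were chosen for large fold changes, so that their values are descriptions. DESeq2 did not call Gpihbp1, Clec1a, Gja5, Car4, C1qtnf9, Sema3g, Ccl21a and Esm1 over the stromal and macrophage classes, nor Car4, Clec1a, Esm1 and Gja5 over the endocrine classes, and Gja5 was not called over the macrophage class without experiment 2 of the endothelial cells.

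The last of the named genes, Ccl21a, a chemokine of lymphatic vessels, rested on 2 cells. All its 44 UMIs in experiment 1 were in 1 of 73 cells and all 439 in experiment 2 in 1 of 173, so that its 196 and 1184 CPM say nothing of the other endothelial cells. It also has near-identical copies in the mouse genome, between which reads may be split.

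Genes of cell contacts and the vessel surface were higher almost throughout. Of 12 tested, 11 were higher in all 3 comparisons, against 5.14% of all genes tested. Of the 11, 7 had passed the filter only through the endothelial sums. The list medians of the log2 fold change were 5.41, 7.71 and 8.12. Eng, a co-receptor of TGF-β ligands, stood at 682 and 742 CPM, Cd93 at 495 and 429 CPM, the sialomucin Podxl at 392 and 496 CPM and Icam2 at 232 and 178 CPM, and their values in the 2 experiments were close to each other. Cd34, a surface sialomucin, was the exception, with 450 and 429 CPM in endothelial cells and 551 and 707 CPM in the stromal class (log2 fold change -0.73, adjusted p = 0.31). Cldn5, a tight junction protein, stood at 642 CPM in experiment 1 and 99.8 CPM in experiment 2, the widest gap of the group. In experiment 1 it was found in 13 of 73 cells, of which 4 held 129 of its 144 UMIs.

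Of 14 receptors tested, 10 were higher than in the stromal class and 12 in each of the other comparisons (4 of the 14 passed the filter only through the endothelial sums). The shares of all genes called higher were 8.6% over the stromal, 14.7% over the macrophage and 22.5% over the endocrine classes. S1pr1, the receptor of sphingosine 1-phosphate, stood at 334 and 585 CPM, against at most 2.73 CPM in the stromal class and 49.9 CPM in the macrophage class. Nrp1, a co-receptor of VEGF and semaphorins, stood at 620 and 397 CPM, and Ramp2, which forms the adrenomedullin receptor with Calcrl, at 513 and 386 CPM. Tie1 stood at 178 and 167 CPM, whereas Tek, the angiopoietin receptor, at 183 and 210 CPM, was not called over the stromal class (73.5 and 115 CPM, adjusted p = 0.11) unless the cells with genes of other cell types were left out (233 and 252 CPM, adjusted p = 0.028). Insr, the insulin receptor, stood at 40.1 and 40.5 CPM and was not called in any comparison, with adjusted p-values of 0.18, 0.21 and 0.27.

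Vegfa, the main ligand of Kdr and Flt1, was low in endothelial cells. It stood at 17.8 and 18.9 CPM in endothelial cells, at 36.3 and 51.9 CPM in the β-class, 29.4 and 60.3 CPM in the α-class and 87.2 and 93.9 CPM in the δ-class. Its log2 fold change over the endocrine classes was -2.65 (SE 0.42, adjusted p = 4.8e-05 by edgeR). Over the stromal class (32.1 and 76.4 CPM) it was -1.89 (adjusted p = 0.019 by edgeR), a call that was lost without either experiment of the endothelial cells. Vegfa was called higher than in the macrophage class. That call was lost without the cells that held 3 or more lymphatic, mural, erythroid or ductal genes (log2 fold change 2.77, adjusted p = 0.15 by edgeR). Fold changes, unlike CPM, also carry the TMM normalization factors, which were 1.57 and 1.51 for the endothelial sums and 0.381 and 0.481 for the β-class sums. Vegfc, a ligand of the lymphatic receptor Flt4, stood at 71.4 and 89.0 CPM, higher than in the endocrine classes by 4.64 (SE 0.46) and not called over the stromal class. None of the 5 tested VEGF and angiopoietin ligands was higher in all 3 comparisons.

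Of 15 endothelial transcription factors 13 could be tested, and 10 were higher in all 3 comparisons, against 5.14% of all genes tested. Of the 10, 5 passed the filter only through the endothelial sums. Epas1, a hypoxia-inducible factor, was the highest of the list at 821 and 952 CPM, against 41.3 and 38.2 CPM in the stromal class and at most 6.05 CPM in the macrophage class (log2 fold changes 4.27, 6.88 and 7.57). Fli1 and Ets1, of the ETS family, stood at 245 and 310 CPM and 241 and 294 CPM, and Fli1 was not called over the macrophage class (68.7 and 112 CPM) without experiment 1. Sox17 and Sox18, which act in vessel formation, were lower at 62.4 and 86.3 CPM and 53.5 and 89.0 CPM, and the calls over the stromal class were lost without experiment 2 for Sox17 and without experiment 1 for Sox18. Klf2, Klf4 and Lmo2 were higher only than in the endocrine classes by this test. Erg, the ETS factor often used to stain endothelium, was at 8.92 and 8.09 CPM, which is 2 and 3 UMIs, and was not tested.

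Caveolae, the flask-shaped pits of the endothelial membrane, were represented by 6 genes. Of these, 5 were higher in all 3 comparisons, against 5.14% of all genes tested, and 1 of the 5 (Cav2) had passed the filter only through the endothelial sums. Cavin2 stood at 1119 and 960 CPM and Cav1 at 847 and 882 CPM, against 106 and 57.3 CPM and 124 and 90.1 CPM in the stromal class and 0 in the macrophage class. Cavin1, which coats caveolae in many cell types, did not differ detectably from the stromal class, at 343 and 494 CPM against 317 and 393 CPM.

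**Figure D2:**
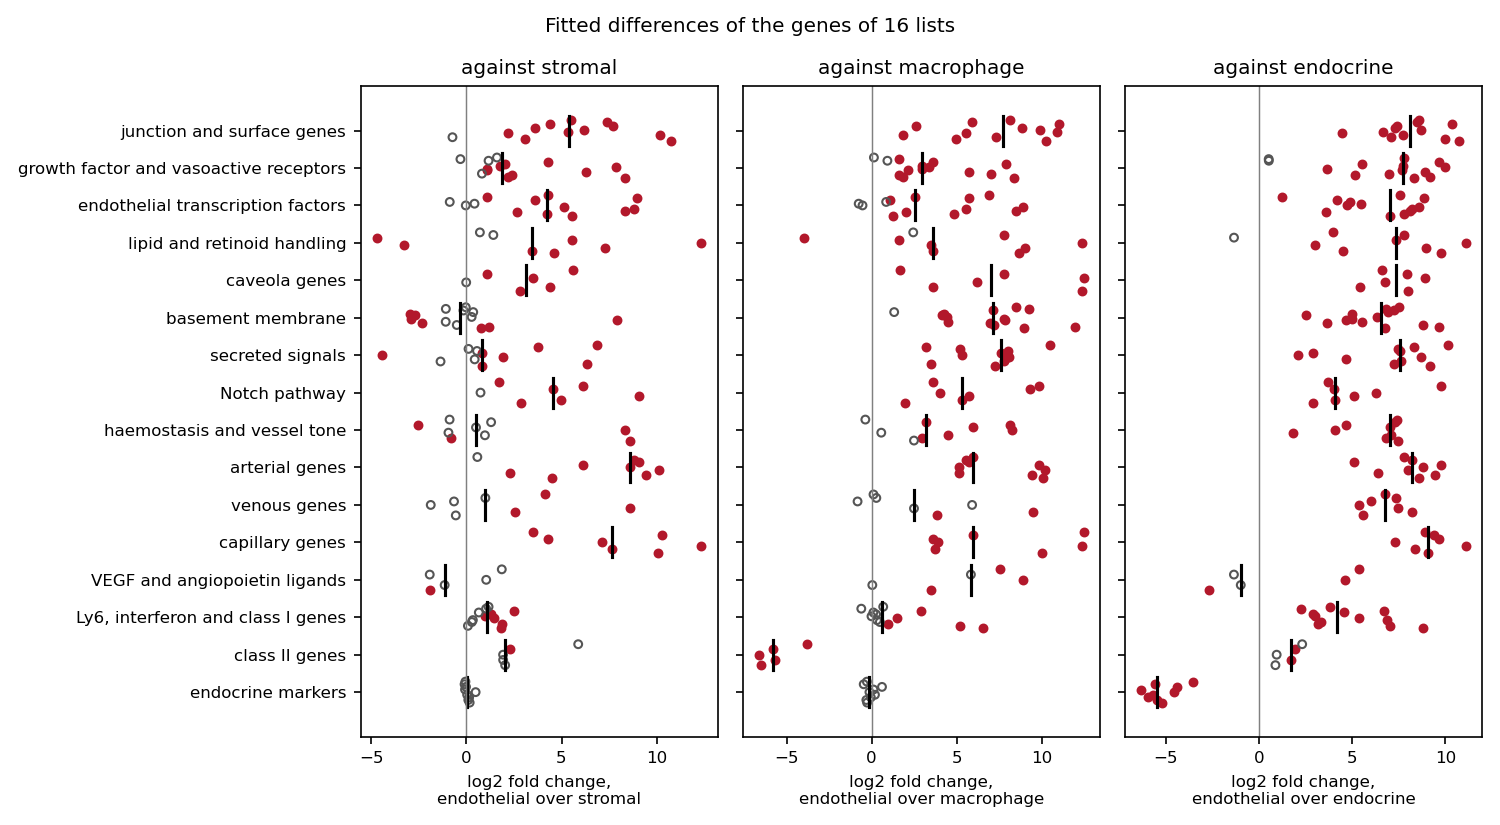
Fitted log2 fold changes of the tested genes (points) of the gene lists, endothelial over stromal, macrophage and endocrine classes from left to right. Filled points were called by edgeR, open points were not, and black bars are list medians. Junction, caveola, arterial and capillary genes lie to the right in all 3 panels, except Cd34 and Cavin1 against the stromal class. Basement membrane genes lie on both sides of 0 against the stromal class (median -0.33) and far to the right in the other panels (medians 7.16 and 6.55).

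Basement membrane genes were shared with stromal cells. All 14 tested were higher than in the endocrine classes and 13 higher than in the macrophage class, but against the stromal class 3 were higher, 4 lower and 7 not called. Of all genes tested, 22.5%, 14.7% and 8.6% were higher in these comparisons, and 10.4% were lower than in the stromal class. Without the cells that held 3 or more lymphatic, mural, erythroid or ductal genes, Col18a1 lost both its calls, over the endocrine and the macrophage classes. The counts were then 13 and 12. Sparc, a collagen-binding glycoprotein, was the most abundant at 2569 and 1775 CPM, below the 4482 and 3361 CPM of the stromal class without passing the test (adjusted p = 0.22). The chains of collagen IV, the network-forming collagen of basement membranes, were higher in endothelial cells. Col4a1 stood at 700 and 790 CPM against 257 and 497 CPM (log2 fold change 0.79, adjusted p = 0.037) and Col4a2 at 745 and 607 CPM against 243 and 262 CPM (1.17, adjusted p = 0.0046), and neither was called without experiment 1 of the endothelial cells. Other subunits differed in direction. Lama5, a laminin α-chain, stood at 40.1 and 43.2 CPM and had 0 UMIs in the stromal class, a call that was lost without experiment 2. It had passed the filter only through the endothelial sums, which fixed its direction. Lama4, Lamb2 and Nid2 were not called. Lamb1, Lamc1 and Nid1 were lower in endothelial cells. Lamb1 stood at 26.8 and 43.2 CPM against 243 and 224 CPM in the stromal class (log2 fold change -2.92, SE 0.35, adjusted p = 1.3e-05), Lamc1 at 75.8 and 45.9 CPM against 321 and 311 CPM (-2.68, SE 0.31, adjusted p = 5.4e-06) and Nid1, which links laminin to collagen IV, at 143 and 124 CPM against 606 and 1174 CPM (-2.95, SE 0.51, adjusted p = 0.0004, all by edgeR). Within each experiment the Col4a1 and Col4a2 values of the endothelial cells lay above and the Lamb1, Lamc1 and Nid1 values below those of the stromal class. The endocrine classes held little of either, at most 8.24 CPM of Col4a1 and 0.798 CPM of Lamb1 in the α- and β-classes.

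Endothelial cells also expressed several secreted signals. All 11 tested were higher than in the macrophage and endocrine classes, and 6 were higher than in the stromal class as well. Of all genes tested, 14.7%, 22.5% and 8.6% were higher in these 3 comparisons. Of the 11, 3 (Ctgf, Esm1 and Pdgfb) had passed the filter only through the endothelial sums. The calls of Igfbp5 over the macrophage and endocrine classes rested on cells that also held genes of other cell types. Igfbp7 and Igfbp3, binding proteins of insulin-like growth factors, stood at 883 and 952 CPM and 397 and 405 CPM, the call of Igfbp7 over the stromal class (436 and 459 CPM) being lost without experiment 1, while Igfbp5 was lower than in the stromal class (40.1 and 75.5 against 808 and 1291 CPM, log2 fold change -4.46). Without the cells that held 3 or more lymphatic, mural, erythroid or ductal genes, Igfbp5 stood at 12.6 and 0 CPM, with a log2 fold change of 1.60 over the macrophage class (adjusted p = 0.63) and of -1.58 over the endocrine classes (adjusted p = 0.30). Pdgfb, which recruits pericytes, stood at 161 and 194 CPM and the stem cell factor Kitl at 156 and 254 CPM. Edn1, the vasoconstrictor endothelin, stood at 334 and 504 CPM, and its call over the stromal class (147 and 262 CPM, log2 fold change 0.81) was lost without either experiment of the endothelial cells. Cxcl12, a chemokine, was as high in the stromal class (583 and 732 CPM) as in endothelial cells (919 and 707 CPM), with an adjusted p of 0.91, and Hgf was at 0.

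Of the Notch pathway, which acts in arteries, 6 of 7 tested genes were higher in all 3 comparisons, against 5.14% of all genes tested. Of the 6, 4 passed the filter only through the endothelial sums. Among the 6 were the receptors Notch1 (201 and 162 CPM) and Notch4 (66.9 and 67.4 CPM), the ligand Dll4 (80.3 and 103 CPM) and the target Hey1 (147 and 159 CPM). Dll4 was not called over the macrophage class without experiment 2. Targets of BMP signals were high, with Id3 at 1351 and 1468 CPM and Id1 at 714 and 912 CPM against at most 358 and 78.1 CPM in the other classes. Of 5 tested, 4 were higher in all 3 comparisons, but 2 of these (Smad6 and Smad7) had passed the filter only through the endothelial sums. The remaining gene, Id2, was called lower than in the macrophage class. Against the stromal class 8.6% of all genes tested were higher and 10.4% lower. Of 9 genes of haemostasis and vessel tone tested in that comparison, 2 were higher, 2 lower and 5 not called. The 2 lower were Thbd, which turns thrombin to an anticoagulant role (192 and 262 against 321 and 352 CPM, log2 fold change -0.82), and the plasminogen activator Plat (53.5 and 43.2 against 197 and 262 CPM, log2 fold change -2.54). The call of Thbd was lost by DESeq2 (adjusted p = 0.29), without either experiment of the endothelial cells and without the cells that held genes of other cell types. The 2 higher were Vwf (40.1 and 89.0 CPM) and the nitric oxide synthase Nos3 (58.0 and 54.0 CPM), both calls being lost without experiment 2. Both genes had passed the filter only through the endothelial sums, which fixed their direction. Vwf, the clotting factor of large vessels, was found in 8 of 73 and 18 of 173 cells.

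Ly6 and class I genes were among the most abundant transcripts. Ly6c1 stood at 2355 and 2695 CPM, Ly6a at 2087 and 2487 CPM and Ly6e at 2118 and 2414 CPM, and B2m, the light chain of class I molecules, at 6106 and 4211 CPM. All 12 genes of this list were higher than in the endocrine classes, 6 than in the stromal and 5 than in the macrophage class. Of all genes tested, 22.5%, 8.6% and 14.7% were higher in these comparisons. Ly6c1 was not called over the stromal class (615 and 560 CPM) without experiment 1, and Ly6a did not differ from the stromal class by the test (1929 and 1521 CPM, adjusted p = 0.96). Ly6, Ifitm and class I genes have close relatives in the genome, so that their split between family members is uncertain.

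The genes taken by the naming rule from those lower in each comparison were the following. Col14a1, a fibril-associated collagen, had 0 UMIs in endothelial cells and was at least 182-fold lower than in the stromal class at a floor of 3 counts, Pcolce2 at least 80.9-fold and Fndc1 at least 74.5-fold. Against the macrophage class Ccr2, a chemokine receptor, was at least 95.4-fold, Ms4a6c at least 87.2-fold, the ribonuclease Ear2 at least 79.8-fold and the tetraspanin Cd53 at least 63.0-fold lower. Against the endocrine classes the transcription factor Neurod1 was at least 28.6-fold, the G protein subunit Gnao1 at least 28.1-fold, Sphkap at least 24.5-fold and the granule protein Ptprn at least 23.0-fold lower. Col1a1, Lum and C1qc, which the rule also named, had helped to define the stromal and macrophage classes. The 9 general endocrine markers were lower than in the endocrine classes, as were 18.3% of all genes tested, and were not called against the stromal and macrophage classes.

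The kinds of vessel were then counted cell by cell with fixed lists, which overlap in the cells they mark. Capillary genes were present most widely, with 3 or more of the 7 in 56 of 73 cells in experiment 1 and 104 of 173 in experiment 2 (38 and 75 with every cell thinned to 1000 UMIs). The count is not one of capillary cells, since 27 of the 33 cells with 2 or more arterial genes in experiment 1 and 43 of 70 in experiment 2 also held 2 or more capillary genes. All 7 genes were higher in all 3 comparisons, against 5.14% of all genes tested, but 6 of them passed the filter only through the endothelial sums. Gpihbp1 was found in 67.1% and 59.5% of cells and Car4 in 27.4% and 19.7%. Rgcc, a cell cycle regulator enriched in capillaries, stood at 504 and 896 CPM. At least 1 of 9 venous genes was found in 34 of 73 and 79 of 173 cells, or in 20 and 50 with every cell thinned to 1000 UMIs. Cells with 3 or more of them numbered 8 and 9, or 2 and 5 after that thinning. Sele, Selp and Ackr1, of postcapillary venules, were at 0 and 0, 4.46 and 0, and 13.4 and 8.09 CPM. Ephb4 (93.7 and 127 CPM) was the 1 venous gene higher in all 3 comparisons, and passed the filter only through the endothelial sums. Icam1 stood at 75.8 and 51.3 CPM and Lrg1 at 156 and 24.3 CPM. Nr2f2, a venous transcription factor, stood at 138 and 129 CPM, not called against the stromal class (165 and 167 CPM). Without the cells that held lymphatic, mural, erythroid or ductal genes it stood at 31.4 and 99.3 CPM and was called lower (log2 fold change -1.48). Tip cell genes were found at 3 or more of 7 in 5 and 6 cells, and in 0 and 1 after the thinning, so that such cells were hardly detectable at equal depth. Of 7 genes of the blood-brain barrier 1 could be tested, the transporter Abcb1a (71.4 and 54.0 CPM), and Mfsd2a and Lef1 were at 0.

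Arterial genes were found in part of the cells. At least 1 of the 9 was present in 43 of 73 and 94 of 173 cells. In experiment 1, 26 cells held 3 or more of the 9 arterial genes and 30 held 0, and in experiment 2 these were 50 and 79 cells. With every cell thinned to 1000 UMIs, 13 and 31 cells held 3 or more. In the deposited counts, the totals of the cells with 3 or more were somewhat higher, with medians of 2582 and 2127 UMIs against 1970 and 1603 in the other cells, and more molecules give more genes above 0. Gja4 stood at 192 and 186 CPM in the sums. Of the 9 arterial genes 8 were higher in all 3 comparisons, against 5.14% of all genes tested. However, 7 of the 8, all but Efnb2, had passed the filter only through the endothelial sums. The mural gene Rgs5 moved with them. All 4 cells with 3 or more mural genes in experiment 1 and 11 of 14 in experiment 2 also held 3 or more arterial genes.

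When the cells with mural genes were set aside, 22 and 39 cells with 3 or more arterial genes remained, with median totals of 2035 and 1945 UMIs, beside 30 and 79 cells with none, with medians of 1774.5 and 1618. The genes given here were picked after their values were seen and were not tested. Stmn2, a tubulin-binding protein, stood at 415 CPM in arterial-gene cells and 29.2 CPM in the others in experiment 1, and at 1338 and 57.5 CPM in experiment 2. Edn1 stood at 658 and 131 CPM in experiment 1 and at 1250 and 178 CPM in experiment 2. Ace, the angiotensin-converting enzyme, stood at 443 and 102 CPM and then at 884 and 161 CPM, and Glul, glutamine synthetase, at 300 and 29.2 CPM and then at 581 and 28.7 CPM. In both experiments all 4 genes were thus at least 4 times as high in the cells with arterial genes.

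Other genes were lower in the cells with arterial genes. Fabp4 stood at 5822 CPM in them and 11870 CPM in the cells with no arterial gene in experiment 1, and at 5592 and 7820 CPM in experiment 2. Aqp1, a water channel, stood at 71.5 and 949 CPM in experiment 1 and at 227 and 977 CPM in experiment 2, and Col15a1, a collagen next to the basement membrane, at 71.5 and 423 CPM and then at 25.2 and 351 CPM. Fabp5 was at 186 and 1110 CPM and then at 240 and 891 CPM, and Cd34 at 215 and 715 CPM and then at 126 and 575 CPM. Plvap did not separate the cells, with 1359 and 1329 CPM in experiment 1 and 1174 and 1339 CPM in experiment 2. Rbp7 was at 1731 and 1343 CPM in experiment 1 and 3837 and 1322 CPM in experiment 2. Its level in the cells with no arterial gene was nearly equal in the 2 experiments, and it was the cells with arterial genes whose level differed.

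**Figure D3:**
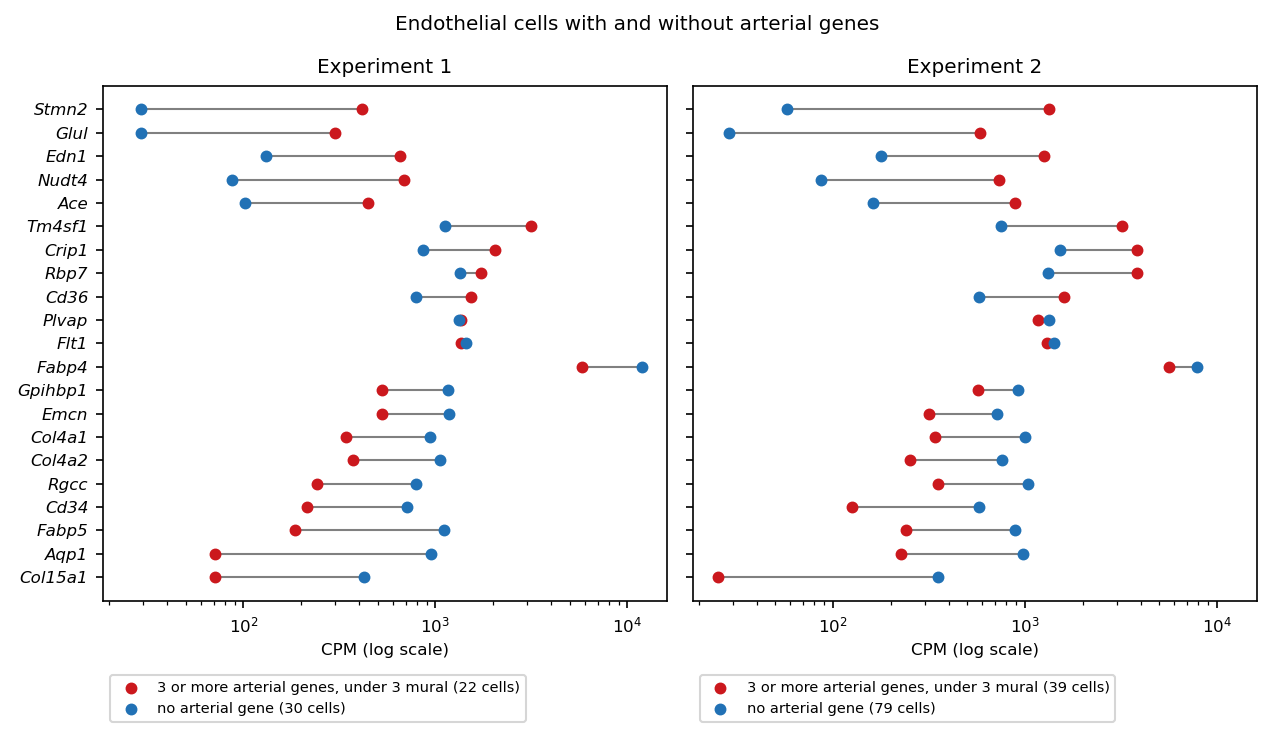
Summed levels of selected genes (rows) in endothelial cells with 3 or more arterial genes and under 3 mural genes (red) and in those with no arterial gene (blue), in CPM on a log axis, in experiment 1 (left) and experiment 2 (right). Stmn2, Glul, Edn1 and Ace lie to the right in red in both experiments, Fabp4, Aqp1, Fabp5 and Col15a1 lie to the right in blue, and Plvap and Flt1 nearly coincide.

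Some genes came from very few cells. Hbb-bs, a haemoglobin chain with near-identical copies, had 0 UMIs in experiment 1 and 1276 in experiment 2, of which 1275 were in 1 cell, and Spp1, a secreted protein of ductal and other cells, had 121 of 144 UMIs in 1 cell and 104 of 109 in 1 cell. Lymphatic genes were found at 3 or more in 4 cells and 1 cell (1 and 1 after thinning), which held 94.2% and 95.8% of the UMIs of that list, among them Mmrn1 (200.7 and 27.0 CPM) and Prox1 (84.7 and 24.3 CPM). Mural genes were found at 3 or more in 4 and 14 cells, which held 95.8% and 91.9% of the UMIs of the list, erythroid genes in 0 and 2 cells and ductal genes in 1 and 2 cells. The cells with ductal genes had totals of 12305, 14571 and 16999 UMIs, the highest of the endothelial cells. Whether these were single cells or droplets with 2 cells was not tested. The doublet caller Scrublet marked 0.268% and 0.0592% of the cells in the libraries and none of the endothelial cells, which is too few to serve as a check. The study removed doublets for its own analysis, and whether the deposited cells had been through that step is not stated.

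Without these cells, 218 endothelial cells (64 and 154) remained. Rgs5 fell from 455 and 504 CPM to 25.1 and 78.0 CPM, and Notch3 and Ccl21a to 0. Cldn5 stood at 81.7 and 99.3 CPM, so that its excess in experiment 1 lay in the cells left out. Arterial genes remained, with Gja5 at 126 and 106 CPM and Sema3g at 157 and 202 CPM, and 472 genes were higher in all 3 comparisons, of which 415 were among the 435. This selection was made after the values were seen.

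**Figure D4:**
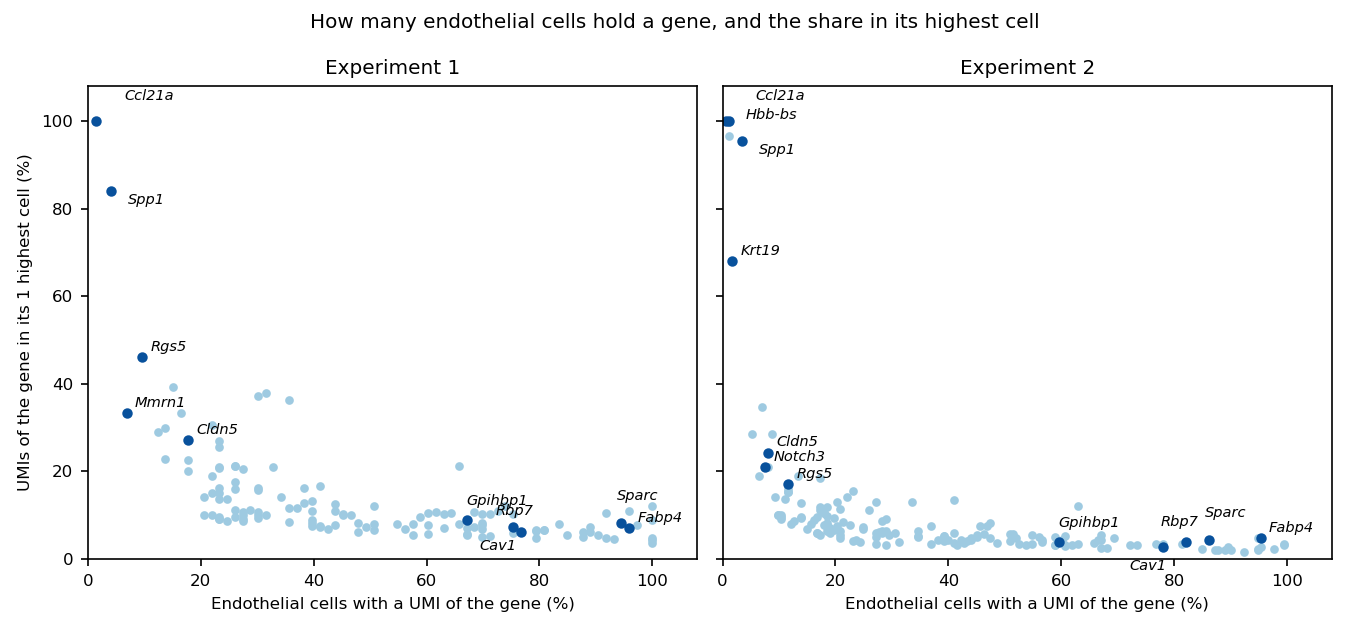
For genes with at least 20 UMIs in the endothelial cells of an experiment (points), the share of cells with a UMI of the gene (horizontal axis, %) and the share of its UMIs in the 1 highest cell (vertical axis, %), with some genes named. Fabp4, Sparc and Rbp7 lie at the lower right, found in most cells, while Ccl21a, Spp1 and, in experiment 2, Hbb-bs lie at the upper left, carried by 1 cell.

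The 2 experiments differed in some genes that the groups do not explain, and the experiment served as a term in every fit. The Y-linked genes Ddx3y and Eif2s3y stood at 62.4 and 22.3 CPM in the endothelial cells of experiment 1 and at 0 in all 6 classes of experiment 2, and Xist, expressed from the inactive X, at 776 and 1821 CPM. The labels do not give the sex of the mice, and its part in the other differences was not tested. Class II genes were lower than in the macrophage class, with Cd74 at 424 and 607 against 20782 and 13345 CPM. Over the stromal class Cd74 (59.7 and 153 CPM) was the 1 of 5 class II genes that was called, and over the endocrine classes Cd74 and H2-Ab1 were higher, with log2 fold changes of 1.93 and 1.70. Of all genes tested, 8.6% were higher than in the stromal and 22.5% than in the endocrine classes. Of the endothelial cells, 10 and 28 held 3 or more of 5 class II genes. Immediate early genes, which dissociation can induce, summed to 1249 and 2204 CPM in endothelial cells and to 2218 and 1581 CPM in the stromal class. None of 10 tested was higher in all 3 comparisons, and the part of dissociation was not tested. Proliferation genes summed to 112 and 192 CPM, and 28 of the 29 Top2a UMIs of experiment 2 were in 1 cell.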

How the data were processed

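UMIs were counted by the authors with Cell Ranger on the mm10 reference with YFP and rtTA added, and cells low in genes or UMIs or high in mitochondrial reads were removed; per the labels, R 3.6.1 and Seurat were also used. The deposited matrices hold raw counts of UMIs per gene and cell. They were read as deposited, with no column of unknown sample (0), and the bulk libraries were not used here. The lowest totals per cell were 1001 to 1281 UMIs and the libraries held between 10683494 and 18330975 UMIs in all. Experiment 1 is the pair of libraries without a number in the label.

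Levels for the rule were ln(1 + 10000 × UMIs / total), with limits of 3.23 (Ppy), 5.12 (Gcg), 6.36 (Ins2) and 3.32 (Sst). Stromal and macrophage classes needed 3 or more of their markers, and α-, β- and δ-classes were cells high in 1 hormone only. The members, the 30 gene lists (255 symbols, of which 2, now Cavin1 and Cavin2, were matched by RefSeq synonyms) and the tests were chosen with earlier results of these data known, so that lists are described by counts and medians and given no test of their own. Named genes were the 15 with the largest smallest log2 fold change among genes higher in all 3 comparisons with at least 100 CPM in both endothelial sums, the 5 largest decreases per comparison without overlap, and list members. Predicted genes were left unnamed, and a list member that is counted but not named is not reported here.

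Counts were summed per class and experiment, since cells are not replicates. The 12 sums of 6 classes were fitted together by the quasi-likelihood test of edgeR 4.0.16 after TMM normalization and filterByExpr, with Benjamini-Hochberg adjustment, which kept 8475 genes at a common dispersion of 0.0326, with 5 residual and 12.2 prior degrees of freedom. The experiment was kept as a block because classes of a library come from the same animals, and the deviations of every pair of classes were correlated (0.157 to 0.516). The fold threshold of 0.5 on the natural log scale follows the study. On 1 draw of simulated counts over 6813 genes the test called 20%, 14% and 38% of genes changed 2-fold (stromal, macrophage, endocrine) and 63%, 76% and 84% of those changed 4-fold, with 3.49%, 5.26% and 2.4% unchanged genes among its calls. Doublets were sought with Scrublet in scanpy 1.11.5 at an expected 2%. It marked 4 of 1495 and 1 of 1689 cells, none of them endothelial, so none was removed. The authors removed cells called by DoubletFinder or Scrublet, and it is not stated whether before or after the deposit.

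The alternatives were DESeq2 1.42.0, its size factors in edgeR, no filter, hormone genes left out, Bonferroni adjustment as in the study, a log2 threshold of 1, no block, each endothelial sum left out, cells thinned to 1000 UMIs, 2 or 4 vessel genes in the rule, cells with stromal or macrophage markers left out and, chosen after seeing the data, cells with lymphatic, mural, erythroid or ductal genes left out. Intervals are exact binomial at 95% and floors 3 counts over a class; both cover counting error only. Work was done in R 4.3.3 and Python 3.11.15 (numpy 2.4.6, scipy 1.17.1, pandas 2.3.3, matplotlib 3.10.9).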

Additional observations from a re-analysis of the deposited data

Results flagged for a closer look

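Endothelial transcripts were also looked for in the YFP+ libraries, which the comparisons did not use. A Fabp4 UMI was found in 6 of 1300 YFP+ cells of experiment 1 (0.462%, 7 UMIs) and in 2 of 1498 of experiment 2 (0.134%). Rbp7 and Gpihbp1 were found in 1 cell each in experiment 1 and in 0 cells in experiment 2. In each YFP+ library 1 cell held 3 or more of the 8 vessel genes, and both were high in a hormone gene. The source of these UMIs was not tested.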

How the results depend on the processing

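Counts of called genes are given here in the order higher and lower than in the stromal class, higher and lower than in the macrophage class, higher and lower than in the endocrine classes, and higher in all 3, where the report gives 728, 882, 1248, 1138, 1904, 1547 and 435. With cells thinned to 1000 UMIs they were 387, 462, 564, 542, 893, 567 and 258, with fewer molecules in every sum. With the Bonferroni adjustment they were 149, 216, 301, 244, 787, 321 and 112. Leaving out 1 endothelial sum, where the lone sum is assumed to vary like the other classes, gave 435 to 547, 414 to 602, 825 to 1102, 503 to 911, 1421 to 1670, 1070 to 1145 and 267 to 342. Leaving out cells with stromal or macrophage markers removed no cell and tested nothing, and the other alternatives stayed within 1.5 times each count. Without the replicate block the counts were 625, 746, 1138, 987, 1855, 1424 and 394, of which 383 were among the 435. Of the calls of single genes, the Bonferroni adjustment lost 158, DESeq2 93, the fit with no block 27, the one without experiment 1 lost 44 and the one without experiment 2 lost 61. These counts cover only the 230 named and listed genes that were given alternatives. Among them the sign changed in 18 cases in which the main fit or the alternative called the gene. Without cells that held lymphatic, mural, erythroid or ductal genes, an alternative chosen after seeing the data, the log2 fold change over the stromal class was -3.06 for Acta2, -0.40 for Prox1, -3.77 for Sox9 and -0.23 for Spp1. Over the macrophage class it was -1.54 for Krt19 and -0.0058 for Pdgfrb. Over the endocrine classes it was -1.58 for Igfbp5, -1.52 for Krt19, -1.86 for Lyve1, -0.78 for Pdgfrb, -1.03 for Pdpn, -2.04 for Sox9, -0.74 for Spp1 and -1.20 for Top2a. Without replicate 2 of the endothelial cells Dusp1 was at -1.52 over the stromal class, and at 0.79 without replicate 1. With thinned cells Id2 was at 0.17 over the macrophage class and Lyve1 at -0.33 over the endocrine classes, and with 2 of 8 vessel genes required Dcn was at 4.23 over the endocrine classes. The cause of the last 4 was not tested. The number of endothelial cells was 262 with 2 and 240 with 4 vessel genes required and 220 with the rule applied after thinning. Thinning lowered the shares of cells with a UMI to 64.4% and 70.5% for Rbp7, 54.8% and 46.8% for Gpihbp1, 9.59% and 12.7% for Gja4, 13.3% for Car4 in experiment 2 and 2.74% for Vwf in experiment 1. Depth limits all absences here, since 3 counts over the endothelial sums are 5.04 CPM.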

Other observations

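Transcripts of other organs were present in the endothelial cells of experiment 2. Tff3, a secreted peptide of mucous epithelia, and the apolipoprotein Apoa1 each stood at 111 CPM there and at 0 in experiment 1, Apoa4 at 78.2 and 0 CPM, the intestinal fatty acid carrier Fabp2 at 59.3 and 0 CPM and Lgals4 at 54.0 and 0 CPM. Apoa1 was spread over 37 of 173 cells, and the stromal and macrophage classes of experiment 2 held it at 109 and 78.6 CPM. Tff3 was also spread over 37 endothelial cells but stood at 2747 CPM in the stromal and 1244 CPM in the macrophage class of experiment 2. S100a8, a granule protein of neutrophils, stood at 0 and 205 CPM in endothelial cells, in 62 cells of experiment 2, while the macrophage class held 0 and 15148 CPM. The macrophage class of experiment 1 held Igkc, an antibody light chain, at 16238 CPM and Jchain at 4024 CPM, against 428 and 42.3 CPM in experiment 2. These genes were picked after their values were seen, and their sources were not tested.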
